A study of Mus musculus with 12 samples.

Results

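The genes described here are the type I interferon response genes of mouse liver, a set of 42 genes that cells switch on after interferon alpha or beta binds its receptor. They were chosen by symbol: a feature of the array counted for a gene when the probe-to-gene table gave it that symbol alone, and where a gene had several features the one with the highest mean signal was used. Of the 42 listed genes 41 had such a feature, out of 30833 named genes and 65956 transcript features on the array; Ifi44 is not analysed here. Beyond that mean signal over all 12 arrays, the rule uses no measured value and no difference between groups.

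Livers came from 12 mice of the C57BL6/J strain, aged 12 weeks, each hybridised to its own Affymetrix transcriptome array. Of these mice 6 were wild-type (WT, ENT3 +/+) and 6 were knockout (KO, ENT3 -/-). ENT3 is a nucleoside transporter of lysosomes and mitochondria, encoded by Slc29a3. Each genotype held 3 mice whose title carries the letter M and 3 with the letter F, read here as male and female because the submitters matched the groups for gender; mice are named by genotype, sex and the animal number in the title. The sources used here do not give which part of Slc29a3 was removed, whether it was removed in all tissues, or whether mice shared litters, so the p-values measure the spread between these animals only. All groups were untreated as far as the labels say.

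Type I interferons bind a receptor of a pair of chains, whose kinases activate a complex of STAT proteins with IRF9. That complex enters the nucleus and binds the interferon-stimulated response element (ISRE) in front of its target genes. A related signal from interferon gamma acts through STAT dimers on a different site, the gamma-activated sequence (GAS), and its targets overlap with those of type I interferon, above all among guanylate-binding proteins, immunity-related GTPases and the immunoproteasome. In the liver, hepatocytes, Kupffer cells and endothelium all respond to these signals.

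To show what the members share in sequence, GAAA, any 2 bases and GAAA again were searched as the ISRE core, and TTCNNNGAA as the GAS core, on both strands of windows from 250 bases before to 50 bases after each annotated start (RefSeq, GRCm38.p6). A window was found for 32 of the 41 members, and 16 of these 32 (50%) held the ISRE letters, against 1079 of 27025 genes with a window (3.99%). The GAS letters occurred in 8 of 32 members (25%), against 2582 of 27025 genes (9.55%). A match describes the letters and says nothing of binding. The stretches below come from genes whose values in single mice or in KO are described in full further on, called or not. Irf9 and Tap1 held neither motif in their windows, and Usp18 had no window in the table. Each is 30 bases, written 5′ to 3′ on the gene's own strand, with the matched letters in capitals; TTTC pairs are the same ISRE core read from the opposite strand.

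Eif2ak2, ISRE letters 18 bases after the start, chr17:78882535-78882564, minus strand: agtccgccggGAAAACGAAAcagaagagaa
Stat2, ISRE letters 222 bases before the start, chr10:128270266-128270295, plus strand: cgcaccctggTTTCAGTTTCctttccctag
Ddx58, ISRE letters 2 bases after the start, chr4:40239804-40239833, minus strand: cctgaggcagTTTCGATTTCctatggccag
Isg15, ISRE letters 72 bases before the start, chr4:156200871-156200900, minus strand: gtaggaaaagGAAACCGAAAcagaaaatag
Ifit1, ISRE letters 85 bases before the start, chr19:34640794-34640823, plus strand: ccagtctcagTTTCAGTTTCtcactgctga
Gbp2, ISRE letters 59 bases before the start, chr3:142620594-142620623, plus strand: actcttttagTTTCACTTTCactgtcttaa
Igtp, ISRE letters 34 bases before the start, chr11:58199512-58199541, plus strand: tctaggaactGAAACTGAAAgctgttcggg
Ifi35, GAS letters 7 bases after the start, chr11:101448409-101448438, plus strand: agaagcagaaTTCACAGAAatgaaagtgga
Irf1, GAS letters 90 bases before the start, chr11:53769914-53769943, plus strand: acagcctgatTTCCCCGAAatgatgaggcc
Psmb8, GAS letters 97 bases before the start, chr17:34198088-34198117, plus strand: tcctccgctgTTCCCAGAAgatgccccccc

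The values are the deposited log2 signals, and a difference is KO minus WT on that scale with the standard error (SE) of a limma fit to all 12 arrays. The fit gave each of the 4 groups its own mean, and adjusted p-values are Benjamini-Hochberg values over the 65956 features with a threshold of 0.05. Slc29a3 itself was read at 4.82 to 5.29 in WT livers and 4.10 to 4.19 in KO livers, without overlap, in the direction of the labels. All 12 of these values were below the 95th percentile of the negative controls on their array, so this check rests on a feature at the floor. Signal from the negative control probes sets a rough floor: their 95th percentile lay between 6.20 and 6.83 by array, and 14 of the 41 members were at or below it on every array, while 6 were above it on every array. The 4 poly-A spike controls, RNAs added during sample preparation, averaged 6.30 ± 0.32 (SD, n = 6) in WT and 5.44 ± 0.36 in KO (exact permutation of genotype within sex, two-sided p = 0.005, adjusted p = 0.01 over 4 array measures). The median of the negative controls was 0.14 higher in KO (exact permutation, adjusted p = 0.01). The median of all features was 0.07 higher in KO (exact permutation, adjusted p = 0.02). These 3 array measures moved with genotype, and their part in the results below was not tested beyond the fits given with them.

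Over both sexes no member rose in KO liver and 4 of 41 fell: Eif2ak2, Usp18, Ifi35 and Irf9 (limma). That is 9.76% of the members, beside 9.75% of all features called in either direction (5.28% higher and 4.47% lower). Of all named genes, which like the members have 1 feature each, 14% were called (5.82% higher and 8.23% lower). The median difference over the 41 members was 0.02, beside 0.05 over all features, with 21 members above 0 and 20 below. At an unadjusted p under 0.05 the count was 14 members. After quantile normalization 8 members (19.5%) were called, all lower, beside 10.1% of all features. Among features above the negative control percentile on 3 or more arrays, 5 of 19 members were called (26.3%), all lower, beside 47.6% of features. The typical size of a member's difference, taken without sign, was 0.30, beside 0.10 over all features and 0.11 over all named genes. These sets were not matched for signal. On every array 14 of 41 members were at or below the negative control percentile, beside 54171 of 65956 features. In bulk tissue fewer cells of a type and less RNA per cell cannot be told apart.

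**Figure D1:**
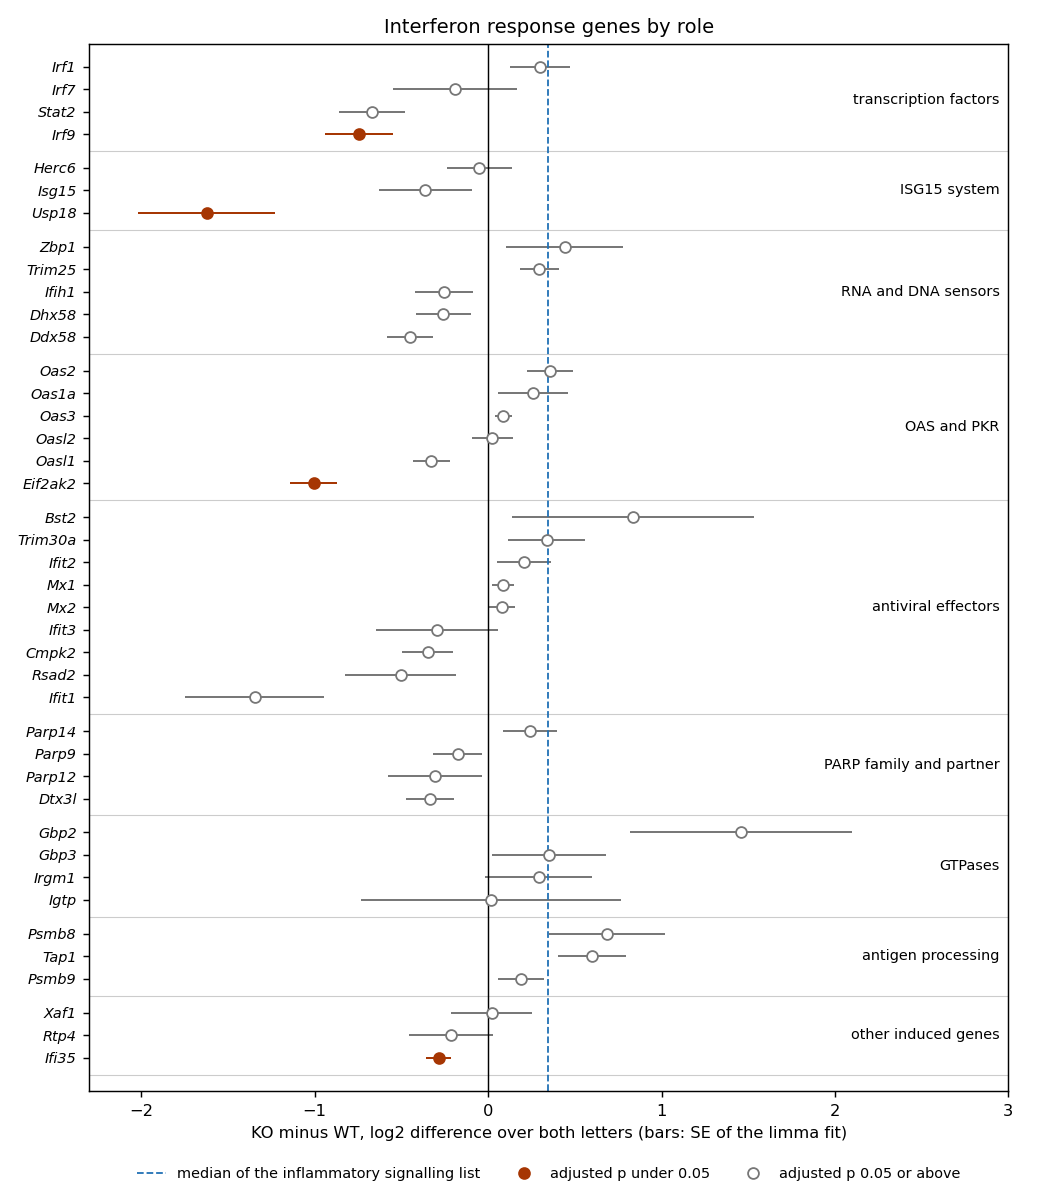
KO minus WT differences of the 41 measured members over both sexes on the deposited log2 scale, grouped by role, with bars of 1 SE from the limma fit to 12 arrays. The 4 members with an adjusted p under 0.05 (Eif2ak2, Usp18, Ifi35, Irf9) all lie below 0. The GTPases and antigen processing genes all lie above 0, Igtp at 0.02, which turned to -0.05 with each array centred on its median. KO female 40 held the highest value in each of these genes.

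Of the 4 transcription factors that carry the signal to the genes 1 fell in KO, and 3 had a fitted difference below 0. Irf9, the DNA-binding part of the complex, read 6.58, 6.52 and 6.41 in WT males and 6.39, 6.13 and 6.43 in WT females. The KO values were 6.07, 5.12 and 6.39 in males and 5.34, 5.82 and 5.25 in females. The KO values spread from 5.12 to 6.39 and reached into the WT range in KO male 39 only, and the difference was -0.75 ± 0.20 (limma adjusted p = 0.0396). Of the 12 fits with 1 mouse removed, 9 lost this call, with adjusted p up to 0.0921.

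Stat2, the partner of IRF9 in that complex, lay between 6.98 and 7.56 in WT. KO mice gave 7.13, 6.03 and 7.10 in males and 6.36, 6.68 and 6.24 in females. The 3 KO females and KO male 19 were below every WT mouse, KO males 18 and 39 were within the WT range, and the difference of -0.67 ± 0.19 missed the threshold (limma adjusted p = 0.0542). Irf7, which amplifies the response, differed by -0.19 ± 0.36, and its highest value was the 7.81 of KO female 40. Irf1, a factor shared with interferon gamma, was steady in WT at 6.02 to 6.18 and ranged from 5.45 in KO male 19 to 6.88 in KO female 40. It differed by 0.30 ± 0.17 (limma adjusted p = 0.35), and without KO male 19 it was called higher, at 0.47 (limma adjusted p = 0.0129).

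Usp18, a protease that removes ISG15 from proteins and also blocks the interferon receptor, had the lowest fitted difference of the set. It read 8.33, 7.54 and 8.0 in WT males and 9.46, 7.51 and 8.52 in WT females. In KO males it read 7.49, 7.45 and 7.86, and in KO females 4.93, 6.87 and 5.03. All KO mice except KO male 39 were below every WT mouse, KO males 18 and 19 by little and KO females 13 and 69 by most. The difference was -1.62 ± 0.40 over both sexes (limma adjusted p = 0.0294) and with 1 mouse removed it missed the threshold in 8 of 12 fits. Isg15, the ubiquitin-like protein that Usp18 removes, was between 4.34 and 4.82 in 11 mice and 6.48 in WT female 25. Its difference of -0.36 ± 0.27 missed the threshold (limma adjusted p = 0.479). Herc6, the ligase that attaches ISG15 in mice, differed by -0.05 ± 0.19.

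Eif2ak2 encodes PKR, a kinase that stops translation when it binds double-stranded RNA. It read 7.50, 7.25 and 7.75 in WT males and 7.83, 7.45 and 7.65 in WT females. The KO livers gave 6.72, 6.6 and 7.12 in males and 6.28, 6.64 and 6.03 in females. All 6 KO mice were below all 6 WT mice. The difference was -1.01 ± 0.14 (limma adjusted p = 0.00227), and the call held in all 12 fits that left out a mouse, with adjusted p of 0.00208 to 0.00758. Only 2 members had KO values wholly below WT, Eif2ak2 and Ifi35, and 1, Tap1, had them wholly above; 1.94% and 1.97% of all features did so, 3.91% together.

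The oligoadenylate synthetases, which make the signal that activates RNase L, stood near the floor. Oas1a, Oas2, Oas3, Oasl1 and Oasl2 were at or below the negative control percentile on every array. Oas2 read 3.77 to 4.06 in WT and 3.99 to 4.80 in KO, a difference of 0.36 ± 0.13 (limma adjusted p = 0.136). Oasl1, a synthetase-like protein that restrains Irf7, read 4.83 to 5.31 in WT and 4.50 to 4.92 in KO, with a difference of -0.33 ± 0.11 (limma adjusted p = 0.0921). Oas3 differed by 0.09 ± 0.05, and Oas1a and Oasl2 by 0.26 and 0.02. None of the 5 synthetase genes passed the test, and the ranges of Oas2 and Oasl1 overlapped between genotypes.

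Among the sensors, Ddx58 (RIG-I, a sensor of viral RNA) read 6.81, 6.73 and 6.74 in WT males and 7.46, 6.77 and 6.99 in WT females. Its KO values were 6.66, 6.47 and 6.93 in males and 6.09, 6.54 and 6.08 in females. All KO mice except KO male 39 were again below every WT mouse, and the difference of -0.45 ± 0.13 missed the threshold (limma adjusted p = 0.0623). Its relatives Ifih1 (MDA5) and Dhx58 (LGP2) both differed by -0.26. Trim25, the ubiquitin ligase that activates RIG-I, read 8.55 to 9.09 in WT and 8.56 to 9.5 in KO, with a difference of 0.29 ± 0.11 (limma adjusted p = 0.144). Zbp1, a sensor of Z-form nucleic acids, differed by 0.44 ± 0.34 and reached 7.09 in KO female 40 against at most 5.37 elsewhere.

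The antiviral effectors had no member past the threshold, and their median difference was 0.08. Ifit1, which binds viral RNA that lacks the host cap, read 6.08, 6.23 and 5.39 in WT males and 7.38, 5.12 and 5.55 in WT females. Values in KO were 4.70, 3.83 and 5.36 in males and 4.38, 5.04 and 4.35 in females. Of the 6 KO mice 5 were below every WT mouse, and KO male 39 fell within the WT range. The difference was -1.35 ± 0.40 (limma adjusted p = 0.0642), and 11 of the 12 values were at or below the negative control percentile of their array.

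The other effectors were less even. Cmpk2, a mitochondrial nucleotide kinase next to Rsad2, read 5.01 to 5.78 in WT and 4.54 to 5.18 in KO, with a difference of -0.35 ± 0.15 (limma adjusted p = 0.188). Rsad2 (viperin) differed by -0.50 ± 0.32, Ifit3 by -0.30 ± 0.35 and Ifit2 by 0.20 ± 0.16. Mx1 and Mx2, GTPases that trap viral particles, stayed near the floor and differed by 0.09 and 0.08, and the restriction factor Trim30a differed by 0.34. Bst2 (tetherin), which holds budding virus at the cell surface, had the highest signal of the set at 12.69 to 14.27 in 11 mice and 17.43 in KO female 40. Its difference of 0.83 ± 0.70 missed the threshold (limma adjusted p = 0.534), and the SD among the 6 KO mice was 1.69.

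In the PARP family, enzymes that add ADP-ribose to proteins, no member passed. Dtx3l, the ubiquitin ligase that pairs with Parp9, read 7.17 to 7.58 in WT and 6.71 to 7.42 in KO, with a difference of -0.33 ± 0.14 (limma adjusted p = 0.181). Parp9 differed by -0.17, Parp12 by -0.31 and Parp14 by 0.24. Ranges of Dtx3l overlapped, with KO males 18 and 39 and KO female 40 inside the WT range.

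The remaining induced genes held 1 call. Ifi35, which binds the adaptor NMI, read 5.76, 5.85 and 5.60 in WT males and 5.65, 5.63 and 5.70 in WT females. KO livers read 5.42, 5.57 and 5.58 in males and 5.10, 5.45 and 5.35 in females. All KO mice were below all WT mice, by a small step: the difference was -0.28 ± 0.07 (limma adjusted p = 0.0321), every value was at or below the negative control percentile, and in 8 of 12 fits without 1 mouse the call was lost. Rtp4, a chaperone of membrane receptors, differed by -0.21 and Xaf1, which promotes cell death, by 0.02.

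The GTPases and the antigen processing genes, targets that type I interferon shares with interferon gamma, pointed the other way, with all 7 fitted differences above 0 and none past the threshold (limma, Gbp2 and Tap1 at an unadjusted p under 0.05). With each array centred on its median, Igtp turned to -0.05. KO female 40 held the highest of the 12 values in all 7. Gbp2, a guanylate-binding protein that attacks vacuoles of intracellular microbes, read 5.49, 5.38 and 5.44 in WT males and 6.99, 5.83 and 5.84 in WT females. KO mice read 7.53, 5.28 and 6.42 in males and 6.84, 10.58 and 7.07 in females. KO male 19 was the lowest of the 12 mice and KO female 40 the highest, and the difference of 1.46 ± 0.64 missed the threshold (limma adjusted p = 0.203); it was 0.85 without KO female 40. Gbp3 differed by 0.35, Irgm1 by 0.29 and Igtp by 0.02 ± 0.75, the last with values from 6.74 in KO male 19 to 11.67 in KO female 40. In males Gbp3, Irgm1 and Igtp differed by 0.39, 0.14 and 0.04. In females the KO means of these genes leaned on KO female 40. In KO females 13 and 69 Igtp read 7.49 and 7.63, below the WT female mean of 8.93. Irgm1 read 7.62 and 7.68 in them, beside a mean of 7.85, and Gbp3 read 5.34 and 5.32, beside 5.68.

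Tap1, a chain of the transporter that feeds peptides to class I molecules, read 5.86, 5.65 and 5.73 in WT males and 5.68, 5.70 and 5.67 in WT females. Its values in KO were 6.21, 5.90 and 6.21 in males and 6.13, 7.35 and 6.08 in females. Every KO mouse was above every WT mouse, yet the single high value of KO female 40 widened the spread, and the difference was 0.60 ± 0.20 (limma adjusted p = 0.0892). Without KO female 40 it was 0.39 and passed (limma adjusted p = 0.00978). Psmb8, an immunoproteasome subunit, read 5.28 to 5.96 in WT, 5.77 to 6.06 in 5 KO mice and 8.11 in KO female 40, for a difference of 0.69 ± 0.33 (limma adjusted p = 0.256) that was 0.33 without KO female 40. Its partner Psmb9 differed by 0.19.

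**Figure D2:**
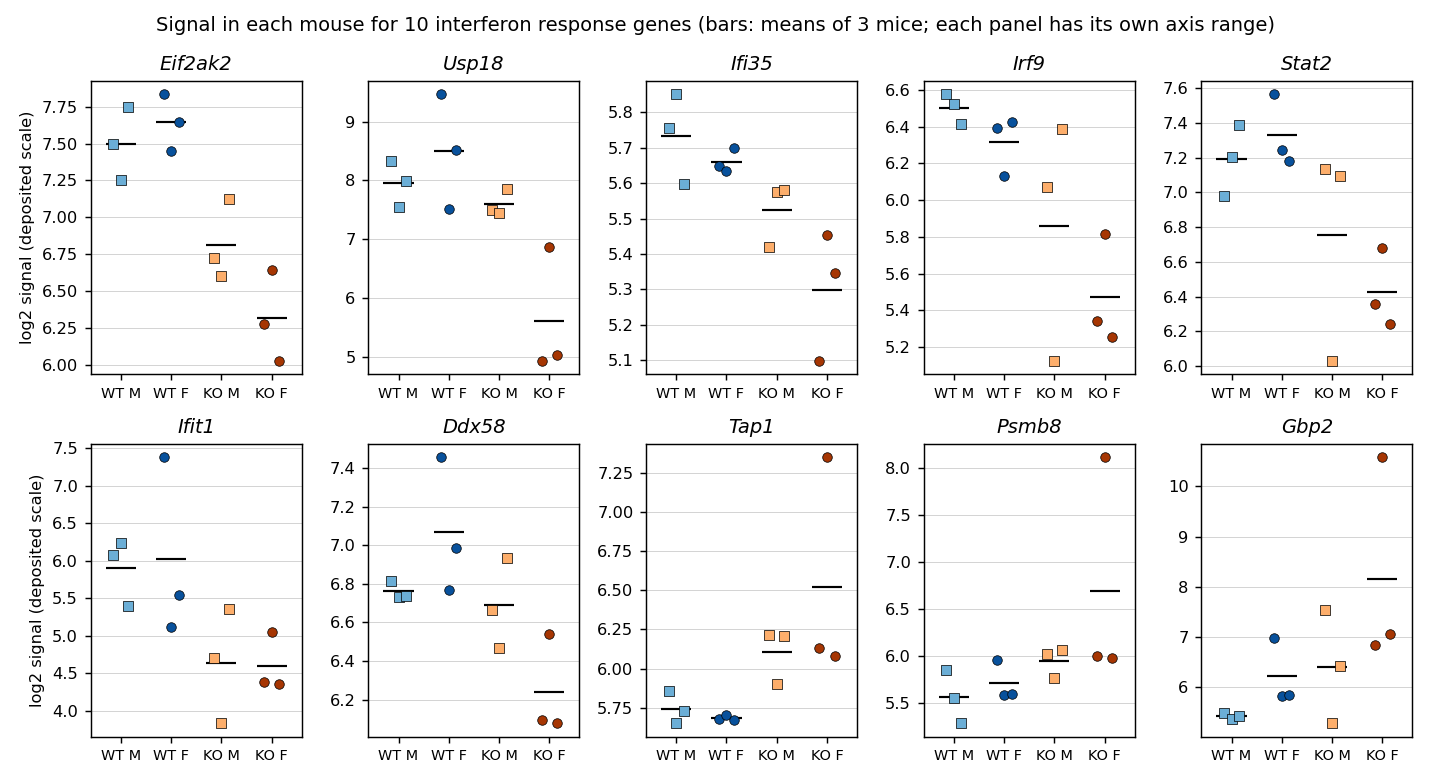
Log2 signal of each mouse for the members named with all their values, in WT and KO males (M) and females (F), with bars at the group means. Eif2ak2 and Ifi35, with KO below WT, and Tap1, with KO above WT, show no overlap between genotypes. Usp18 is lowest in KO females 13 and 69, and KO female 40 stands above the other KO mice for Gbp2 and Psmb8.

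Within the sexes the counts were smaller. In males no member passed (limma), with 5 at an unadjusted p under 0.05, beside 1.09% of all features called (0.579% higher and 0.506% lower). In females 3 of 41 passed, all lower: Eif2ak2 at -1.33 ± 0.19 (limma adjusted p = 0.0053), Usp18 at -2.89 ± 0.56 (0.0171) and Ddx58 at -0.83 ± 0.19 (0.0312), beside 6.19% of all features called (3.13% higher and 3.06% lower). In males the same genes differed by -0.68, -0.36 and -0.07. The difference between the sexes was tested directly: no member passed (limma, 3 at an unadjusted p under 0.05), nor did more than 1 feature of the array (0.00152%), and for Usp18 it was -2.53 (limma adjusted p = 0.54). No member differed between females and males over both genotypes (limma, 1 at an unadjusted p under 0.05, beside 1.23% of all features called, 0.623% higher and 0.602% lower). An effect in females that is absent in males is therefore not shown for any of these genes.

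The highest and lowest values of the set gathered in a few mice of both genotypes. KO female 40 held the highest of the 12 values for 25 of the 41 members (61.0%), beside 17.7% of all named genes. WT female 25 held it for 12 members (29.3%, beside 9.10%), so these 2 mice together were highest in 37 of 41. KO male 19 held the lowest value for 17 members (41.5%, beside 9.73%). Averaged over the members, the deviation from the mean of all 12 mice was 0.78 in KO female 40 and 0.44 in WT female 25, and -0.44 in KO male 19. The other WT mice lay between -0.15 and 0.07, KO males 18 and 39 at 0.01 and 0.13, and KO females 13 and 69 at -0.32 and -0.36. WT mice thus ran from -0.15 to 0.44, with 2 KO mice inside that range, 1 above it and 3 below it.

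**Figure D3:**
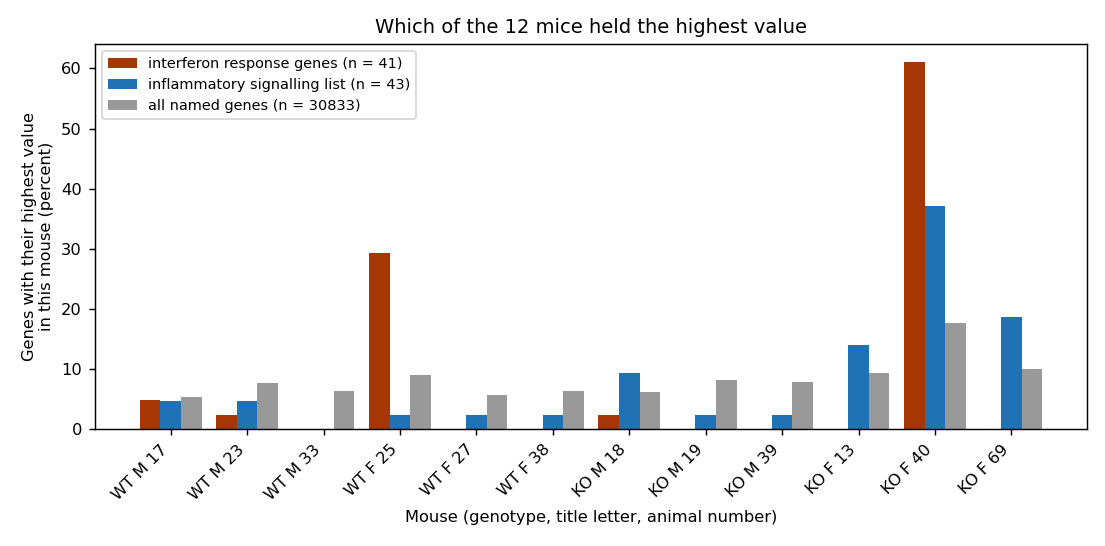
Percentage of genes whose highest value among the 12 mice fell in each mouse, for the 41 interferon response genes, the 43 measured inflammatory genes and all 30833 named genes. KO female 40 holds 61.0% and WT female 25 holds 29.3% of the interferon response genes, beside 17.7% and 9.10% of all named genes.

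The mice with high values did not share one profile. In KO female 40 the GTPases stood 2.57 above the 12-mouse mean, antigen processing 1.40 and the antiviral effectors 0.91, while the ISG15 system stood at -0.02. In WT female 25 the ISG15 system led at 1.51, followed by the antiviral effectors at 0.68 and the GTPases at 0.45, and antigen processing was at -0.13. KO females 13 and 69 were lowest in the ISG15 system, at -1.01 and -0.93. KO male 19 was lowest in the GTPases at -1.0 and the transcription factors at -0.83. The 16 members with the ISRE letters in their window, all 4 GTPases among them, lay farther from the mean than the 16 without. The values were 1.08 against 0.67 in KO female 40, 0.72 against 0.22 in WT female 25 and -0.64 against -0.33 in KO male 19. In KO female 40 that order rested on the 4 GTPases at 2.57. Without them, the other members with the letters did not lie farther from the mean in that mouse. KO females 13 and 69 gave -0.40 and -0.47 with the letters and -0.19 and -0.21 without. In the 9 members with no window the means were 0.47 in KO female 40, 0.35 in WT female 25 and -0.30 in KO male 19. The median KO minus WT differences were -0.12 with the letters and -0.02 without.

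**Figure D4:**
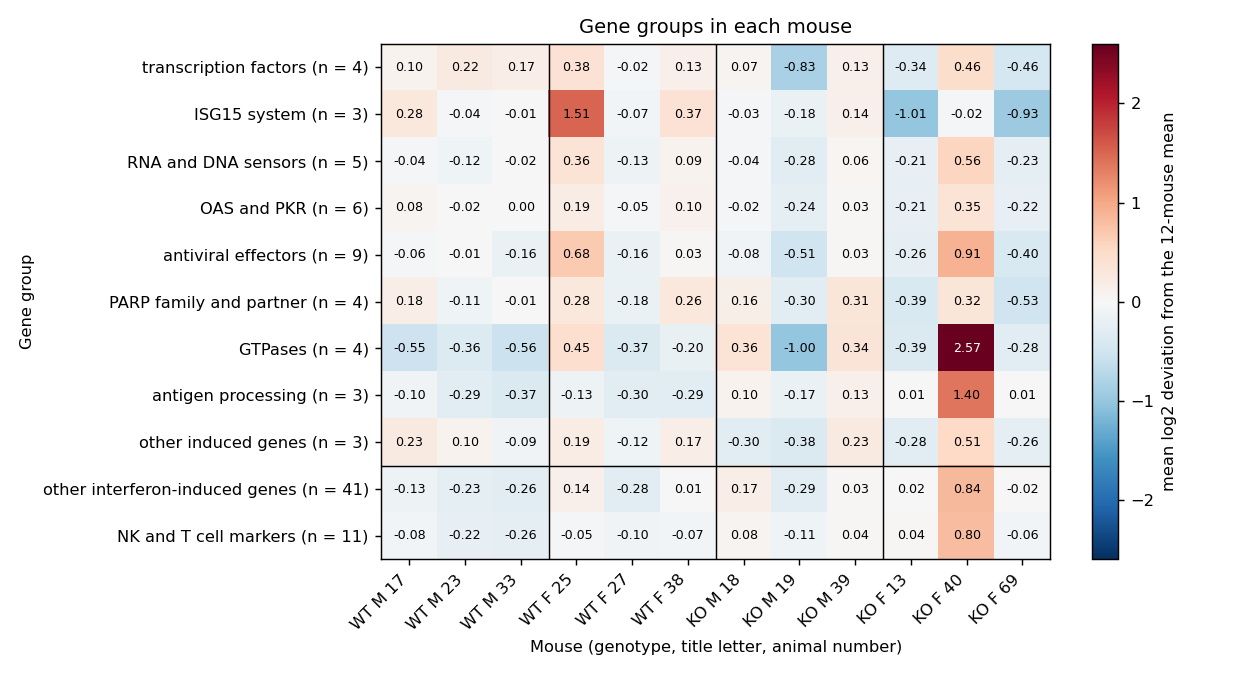
Mean deviation of each mouse from the mean of all 12 mice, on the log2 scale, for each role group of the interferon response genes. KO female 40 is highest for the GTPases (2.57) and antigen processing (1.40), and WT female 25 for the ISG15 system (1.51).

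Leaving out KO female 40 raised the count of members called over both sexes from 4 to 9 (22%), beside 9.46% of all features in that fit: Eif2ak2, Usp18, Ifi35, Irf9, Ddx58, Dhx58, Rsad2 and Dtx3l lower, and Tap1 higher (limma). In that fit Usp18 differed by -1.94 and Rsad2 by -0.80. Without KO female 40 and WT female 25 together, an alternative chosen after seeing the data, 7 members (17.1%) were called, beside 8.98% of all features. Over the 12 fits that left out 1 mouse the count ran from 1 to 9, beside 6.9% to 10% of all features; it was 1 without WT male 17, WT female 25, WT female 38, KO female 13 or KO female 69, and 2 without WT male 23, WT male 33 or KO male 18. Eif2ak2 was the only member called in all 12. With the poly-A spike mean as a covariate no member was called (limma, 8 at an unadjusted p under 0.05), and 3 of 65956 features were called in all. Eif2ak2 then differed by -1.52 ± 0.31 (limma adjusted p = 0.188), beside -1.01 ± 0.14 in the main fit. The spike mean itself moved with genotype, so this fit cannot tell the 2 apart.

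Upstream in the pathway the components moved in both directions. None of the 19 measured interferon genes, the alpha, beta, lambda and gamma ligands among them, rose above the negative control percentile on any array, and 1 passed the test, Ifnz at 0.21 (limma adjusted p = 0.0343). Among 9 receptor chains and kinases, Jak1, the kinase shared by the type I and gamma receptors, rose by 0.70 ± 0.09 (limma adjusted p = 0.002) with every KO mouse above every WT mouse. Ifngr1, the binding chain of the gamma receptor, rose by 1.08 ± 0.24 (0.0203), and Ifnar1, a chain of the type I receptor, fell to 8.14 ± 0.11 (SD, n = 6) from 8.41 ± 0.13, a difference of -0.28 ± 0.07 (limma adjusted p = 0.0258).

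Of 7 further transcription factors of the pathway 2 fell and none rose. Irf3, which switches on the interferon beta gene, lay at 6.61 to 6.95 in WT and 5.84 to 6.36 in KO, a difference of -0.69 ± 0.07 (limma adjusted p = 0.000666), and Irf2, a repressor of interferon targets, differed by -0.28 ± 0.07 (0.03). Of 11 inhibitors 1 rose, the corepressor Irf2bp2 at 1.59 ± 0.23 (limma adjusted p = 0.00267). Of 16 sensors and adaptors 4 rose and 1 fell. The fall was in Mavs, the mitochondrial adaptor of RIG-I and MDA5, from 9.78 ± 0.64 (SD, n = 6) in WT to 7.79 ± 1.0 in KO, a difference of -2.00 ± 0.26 (limma adjusted p = 0.00197). The 4 that rose were the nucleic acid receptors Tlr8 at 1.63 and Tlr9 at 0.43, Myd88, an adaptor of most Toll-like receptors, at 0.66, and the receptor escort Unc93b1, named after its values were seen, at 1.2. In all, 8 of 62 measured pathway genes (12.9%) were called higher and 4 (6.45%) lower, with a median of 0.15, beside the 5.28% and 4.47% of all features. Of all named genes 5.82% were called higher and 8.23% lower. On every array 36 of the 62 pathway genes were at or below the negative control percentile.

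Of 41 other measured interferon-induced genes outside the set, 6 (14.6%) were called higher and 3 (7.32%) lower, with a median of 0.25. The shares were 5.28% and 4.47% of all features, and 5.82% and 8.23% of all named genes. On every array 19 of these 41 genes were at or below the negative control percentile. Lgals9, a galectin, fell by 2.10 from 17.67 ± 0.41 (SD, n = 6) to 15.56 ± 0.39 (limma adjusted p = 0.0008), and the exoribonuclease Pnpt1 fell by 0.83 (0.00345), both with every KO mouse below every WT mouse. Tapbp, which loads peptides onto class I molecules beside Tap1, rose by 0.68 (limma adjusted p = 0.00129) and the deaminase Apobec3 by 0.54 (0.00311). Cxcl9, a chemokine induced mainly by interferon gamma and named here after its values were seen, read 6.45 to 8.17 in WT. Among KO mice it was 11.22, 6.84 and 10.25 in males and 10.73, 15.76 and 10.62 in females. KO male 19 was within the WT range. KO female 40 was far above the rest, as in Gbp2, and the Cxcl9 difference of 3.57 ± 1.01 missed the threshold (limma adjusted p = 0.0525).

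The inflammatory genes, a list of cytokines, Toll-like receptors, NF-kappaB factors and adhesion molecules, were set beside the members to see whether the interferon arm followed them. Of 43 measured inflammatory genes 19 (44.2%) rose and 1 (2.33%) fell, beside 5.28% of all features called higher and 4.47% lower. Their median difference was 0.35, with 36 above 0. Every KO mouse was above every WT mouse in 10 of them (23.3%), beside 1.97% of all features. On every array 25 of the 43 were at or below the negative control percentile. Among features above that percentile on 3 or more arrays, 6 of 11 inflammatory genes were called (54.5%), beside 47.6% of features. Vcam1, an adhesion molecule, rose by 3.77 ± 0.41 (limma adjusted p = 0.000937) and Tnf by 0.40 ± 0.05 (0.00206). In the same arrays 0 of 41 interferon response genes rose, 14 at an unadjusted p under 0.05 in either direction (limma). In females 15 inflammatory genes (34.9%) rose, beside 3.13% of all features, and in males 1 (2.33%), beside 0.579%. None of the 43 passed the direct test of the difference between the sexes (limma, 8 at an unadjusted p under 0.05). The difference between the lists has no test of its own here.

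Mouse by mouse the lists parted as well. The mean deviation of the inflammatory genes was -0.36 to -0.21 in WT mice and -0.12 to 0.55 in KO mice, with no overlap. KO females 13 and 69 had the highest inflammatory means, 0.54 and 0.55, and the interferon means of -0.32 and -0.36 that only KO male 19 undercut. KO female 40 was high in both, at 0.48 and 0.78, and WT female 25 was high in the interferon genes alone, at 0.44 against -0.29. The order of the mice thus differed between the lists.

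**Figure D5:**
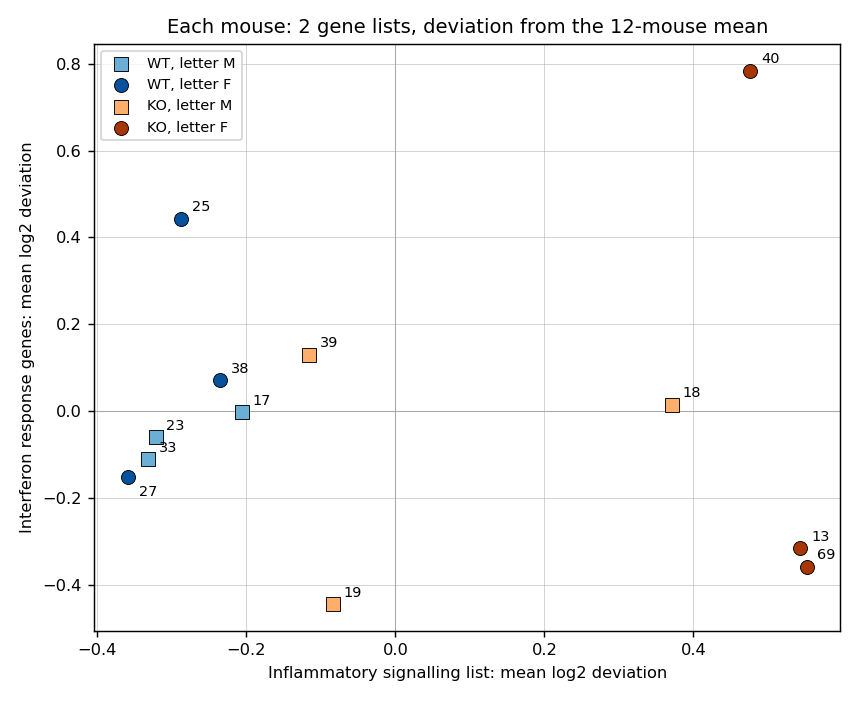
Mean deviation of the 41 interferon response genes (vertical) against that of the 43 inflammatory genes (horizontal) for each of the 12 mice, both on the log2 scale relative to the mean of all mice, labelled by animal number. KO mice lie to the right of all WT mice, while the genotypes overlap on the vertical axis, with KO female 40 at 0.78 and WT female 25 at 0.44.

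Markers of cell types moved with genotype beside these genes. Of 16 macrophage and Kupffer cell markers 13 (81.2%) rose and 1 (6.25%) fell, beside 5.28% of all features called higher and 4.47% lower. Their median was 2.78, and the mean deviation was -2.00 to -0.76 in WT and -0.13 to 3.81 in KO, highest in KO female 40. Of 13 neutrophil markers 9 (69.2%) rose, with S100a8 at 8.30. Of 8 sinusoidal endothelium markers 2 (25%) rose, Lyve1 at 2.22 and Pecam1 at 1.14, and 2 (25%) fell, Clec4g at -1.46 and Kdr at -0.63. Of 5 B and plasma cell markers, all at the floor, Cd79b rose by 0.55. No marker of plasmacytoid dendritic cells, natural killer cells or T cells passed the test (limma, 0 of 8 and 2 of 11 at an unadjusted p under 0.05). Of the 8 plasmacytoid markers, Bst2 of the interferon set among them, 6 were at or below the negative control percentile on every array. The same held for 10 of 11 natural killer and T cell markers. The exception, the granzyme Gzma, read 9.49 in KO female 40 and at most 5.59 in the others, and the mean of that list was 0.80 in that mouse and -0.26 to 0.08 elsewhere. Of 8 hepatocyte markers 5, Alb among them, were at the array's ceiling of 19.93 on every array, where a change cannot be read. The part of these cell types in the interferon values was not tested.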

How the data were processed

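Liver RNA of 12 mice was measured on Affymetrix transcriptome arrays, 3 mice in each of 4 groups of genotype and title letter. The deposited values are log2 signals per feature. The submitters' processing notes name Transcriptome Analysis Console without a version. The sources used here do not say how background was corrected, how arrays were normalized or which genome build was used. All arrays share a ceiling of 19.93. Of 72688 features, 6732 controls were kept out of the tests and used only to compare arrays. Of the 65956 others 31388 had 1 gene symbol, 1362 several and 33206 none, after names sharing 1 gene ID had been merged under the RefSeq symbol. No low-signal filter was applied in the main fit. The number of arrays limits the precision.

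The fit was limma 3.58.1 in R 4.3.3 (lmFit, eBayes) with 4 group means. Contrasts were KO minus WT over both letters, within M and within F, the difference of these, and F minus M. The fit was tested on simulated data over both letters. It recovered 27 of 50 log2 changes of 0.5 (54%) and 43 of 50 changes of 1 (86%), so smaller differences could be missed. Array measures were compared by exact permutation within letter (400 arrangements, two-sided). Values of every mouse are given for members past the threshold in any KO contrast, filled to 16 by the smallest unadjusted p, or by range; in other lists up to 4 genes past the threshold are named, or 2 where none passes. The members, lists and tests were chosen with earlier results of these data known. Alternatives were quantile normalization, median centring, a low-signal filter, no letter term, the mean of a gene's features, an intensity trend, the poly-A spikes as a covariate, and leaving out mice.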

Additional observations from a re-analysis of the deposited data

Results flagged for a closer look

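In 6 of 36 groups of 6 mice examined for the named members and the member means, the mouse at one end stood apart from the next by more than Dixon's 95% limit; chance gives about 1 in 20 such groups, and the genes are not independent of each other. All 6 involved WT female 25 or KO female 40. Within WT, female 25 was high for Ddx58 at 7.46 (next mouse 6.99), for Gbp2 at 6.99 (5.84), for Cmpk2 at 5.78 (5.12) and for the mean deviation over the 41 members at 0.44 (0.07). Within KO, female 40 was high for Psmb8 at 8.11 (6.06) and for Tap1 at 7.35 (6.21).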

How the results depend on the processing

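The members called over both sexes numbered 4 in the main fit, 8 after quantile normalization and 8 after median centring of the arrays, where Stat2, Ifit1, Ddx58 and Oasl1 joined the 4, all lower. With those scalings the calls over all features were 2555 higher and 4091 lower, and 2538 and 4001, beside 3482 and 2950. The count was 0 with the poly-A covariate, which itself moved with genotype. It was 1 to 9 leaving out 1 mouse, and 7 without KO female 40 and WT female 25. With the low-signal filter it was 5 of 19 (26.3%, beside 47.6% of features). In females it was 3, and 5 with median centring (12.2%, beside 6.64% of all features). With the low-signal filter (fewer features tested) it was 5 of 19 in females (26.3%, beside 36.5% of features). The count in females was 0 with the poly-A covariate and 1 to 6 leaving out 1 mouse, and the cause was not tested. The inflammatory count of 20 was 6 of the 11 genes left by the filter (54.5%, beside 47.6% of features, median 0.74 beside 0.35). That count was 11 without the letter term, 0 with the poly-A covariate (median 0.39) and 15 to 22 leaving out 1 mouse. With the poly-A covariate 8 members and 11 inflammatory genes had an unadjusted p under 0.05 over both sexes, and 9 members in females (limma). Oas3 turned to -0.028 with that covariate. Usp18, Ifi35 and Irf9 lost their calls in 3, 4 and 2 of the other alternatives. The member median ran from -0.28 to 0.10, and the poly-A difference from -0.95 to -0.76 leaving out 1 mouse. No paired analysis was possible because the groups share no animal number. Signal was at the floor on every array for 14 members, 1 of them (Ifi35) called.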
